A study of Rattus norvegicus with 16 samples.

Results

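The regions described here are peaks of N4-acetylcytidine (ac4C), an acetylated cytidine in RNA, that lie in transcripts also bound by NAT10, the enzyme that makes this modification. A peak was taken when its Ensembl gene ID stood in all 3 deposited lists of NAT10-bound RNA, so the members were chosen by measured peaks of both assays. This gave 990 rows in 285 genes, out of 11840 rows in the 4 ac4C lists that the choice covered and 71431 rows in all 6 ac4C lists of the series. The genes are 285 of the 362 entries found in all 3 NAT10 lists, and each row lay on the strand of the NAT10 peaks of its gene.

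The cells were primary aortic vascular smooth muscle cells of the rat, grown in medium with 20% fetal bovine serum. For the ac4C assay they had received either a control adenovirus or one that carries a hairpin RNA (shRNA) against NAT10, for 48 h, and RNA fragments of 100 to 200 nt were precipitated with an antibody against ac4C. The NAT10 lists came from 3 libraries of RNA precipitated with an antibody against NAT10 (RNA immunoprecipitation, RIP) from cells labelled wild type and untreated. The 4 ac4C lists are control 3 and knockdown 1, 2 and 3. Controls 1 and 2 were not among the lists chosen, and 26881 and 27673 of their rows share a single p-value, 0.045 and 0.046. The NAT10 peaks therefore show where the enzyme was found in cells without the hairpin, and the ac4C peaks where the antibody enriched RNA in virus-treated cells. The labels do not say that replicates came from separate animals, so the p-values below measure only how far these samples scatter, and that scatter may be technical.

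NAT10 is the acetyltransferase of the nucleolus and nucleus that places ac4C on ribosomal RNA, on transfer RNA with the help of the adaptor THUMPD1, and, in several cell systems, on messenger RNA. In messenger RNA the mark has been linked to stability and to translation, and its extent there is debated. An antibody peak shows a stretch of transcript and not a single cytidine, and a NAT10 RIP peak shows RNA recovered with the protein and not a site of catalysis.

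In the input RNA, Nat10 stood at 7.69, 9.22 and 9.95 FPKM (library-scaled fragments for each kilobase of exon) in controls 1 to 3 and at 4.38, 3.68 and 4.58 FPKM in knockdown libraries 1 to 3. The groups did not overlap, and the log2 change of -0.93 (SE 0.19) had an adjusted p of 0.227 in limma over 13450 genes. Nat10 itself is not a member: it had 2 ac4C rows in the 4 lists and 0 NAT10 RIP rows. All 6 smooth muscle markers were present, and their summed level was 4128 to 5665 FPKM in controls and 641 to 3259 FPKM in knockdown libraries. Endothelial markers summed to 0.0683 to 0.340 FPKM, and leukocyte markers to 3.20 to 10.6 FPKM. Fibroblast markers summed to 293 to 315 FPKM in controls and 191 to 262 FPKM in knockdown libraries. The part of these marker differences in the results below was not tested. In bulk RNA, fewer cells of a type and less RNA per cell cannot be told apart. Peak lists give no read totals, so the depth of the precipitated libraries is unknown.

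Most ac4C peaks in NAT10-bound transcripts did not touch a NAT10 peak. Over the 4 lists, 290 of 990 rows (29.3%) shared at least 1 base with a NAT10 block, a block being one of the exonic pieces that make up a peak. In control 3, 69 of 268 rows did so (25.7%, 95% exact Clopper-Pearson interval 20.6 to 31.4%). In knockdown 1 the count was 56 of 224 rows (25%, interval 19.5 to 31.2%). In knockdown 2 it was 91 of 273 rows (33.3%, interval 27.8 to 39.3%), and in knockdown 3 it was 74 of 225 rows (32.9%, interval 26.8 to 39.4%). Control 3 lay inside the range of the knockdown lists, and the intervals, which cover counting error only, overlapped for every pair of lists. Rows of 1 gene share their transcript and are not independent, so these intervals are too narrow.

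The knockdown lists averaged 30.4% ± 4.69 (SD, n = 3), which is 4.66 percentage points above control 3, or 7.36 points without knockdown 1. With 1 control list this difference has no test. With controls 1 and 2 added without the rows at the shared p, their shares were 22.0% and 22.1%, and the groups differed by 7.10 points with an exact two-sided permutation p of 0.2, where 3 lists against 3 cannot go below 0.1. The difference was 0.607 points when only ac4C rows with a p at or below 1e-05 were kept, and 1.35 points over the genes with rows in all 4 lists.

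**Figure D1:**
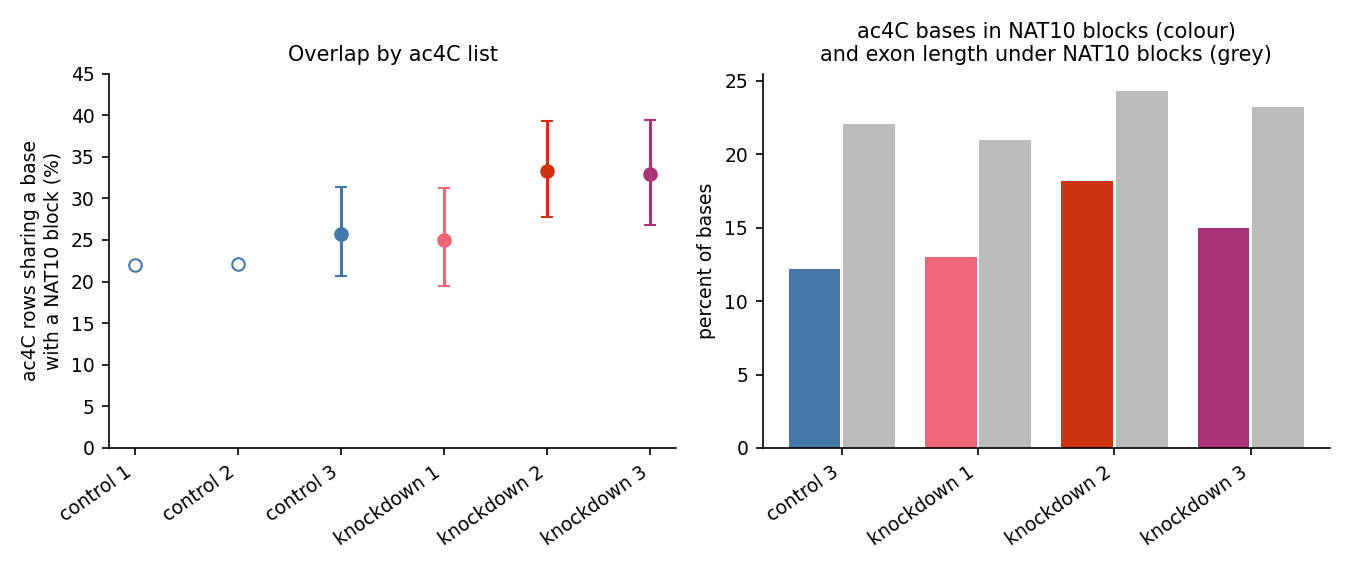
Left: percent of ac4C rows in NAT10-bound transcripts that share a base with a NAT10 block, by ac4C list. Filled points are the 4 member lists with 95% Clopper-Pearson intervals, and open points are controls 1 and 2 without the rows at the shared p, drawn without intervals. Right: coloured bars are the percent of ac4C bases inside NAT10 blocks and grey bars the percent of exon length under NAT10 blocks in the same genes, weighted by ac4C bases. The coloured bar is below the grey bar in all 4 lists.

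The extent of the overlap varied. Of the 290 overlapping rows, 143 had 50% or more of their bases in NAT10 blocks, which were 30 of 69 in control 3 and 32 of 56, 55 of 91 and 26 of 74 in knockdown 1, 2 and 3. Over all rows, overlapping or not, this was 11.2% of the rows of control 3 and 14.3, 20.1 and 11.6% of those of knockdown 1, 2 and 3. Whole rows inside NAT10 blocks numbered 8, 11, 21 and 4 in the same order. Counted by bases, 12.2% of the ac4C sequence of control 3 fell in NAT10 blocks, against 13.0, 18.2 and 15.0% in knockdown 1, 2 and 3. Controls 1 and 2, without the rows at the shared p, stood at 12.2 and 10.4%. By this measure all 3 controls lay below all 3 knockdown lists, narrowly so for knockdown 1. This difference by bases was not tested.

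These shares can be set beside how much of each transcript the NAT10 blocks cover. Exon length was recovered from the deposited FPKM for all 285 genes. NAT10 blocks covered a median of 12.2% of the exon length of a member gene, with quartiles of 6.51 and 28.8%. Weighted by ac4C bases, the covered share was 22.0% in control 3 and 21.0, 24.3 and 23.2% in knockdown 1, 2 and 3. The share of ac4C bases inside NAT10 blocks was lower than this in 4 of 4 lists. It was also lower in each class of coverage. In the 119 genes with under 10% of their exons covered, 4.46% of ac4C bases lay in NAT10 blocks beside 6.09% of exon length. In the 87 genes covered to 10 to 25% the values were 7.92 and 15.6%, and in the 48 genes covered to 25 to 50% they were 21.3 and 35.8%. In the 31 genes covered beyond 50% they were 48.9 and 68.5%. The share of rows with an overlap ran from 12.1% in the least covered genes to 72.2% in the most covered ones. These are descriptions without a test, since the NAT10 lists chose the genes.

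Among the 700 rows that did not touch a NAT10 block, the gap ran from 3 to 254477 nt of genome, introns included. The median gap was 1453 nt in control 3 and 1839, 1918 and 1558 nt in knockdown 1, 2 and 3. With overlapping rows counted as 0, the medians were 603 nt in control 3 and 738, 236 and 416 nt in knockdown 1, 2 and 3. Control 3 lay inside the range of the knockdown lists. The knockdown lists averaged 463 ± 254 nt (SD, n = 3), and with controls 1 and 2 added without the rows at the shared p the exact two-sided permutation p was 0.3. Measured between peak centres, the difference of the groups changed sign, from -140 to 151 nt, and with ac4C rows at a p at or below 1e-05 it was 104 nt. It was -277 nt without knockdown 1, -26 nt without knockdown 2, -66.2 nt without RIP 1 and -66.8 nt without RIP 2.

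**Figure D2:**
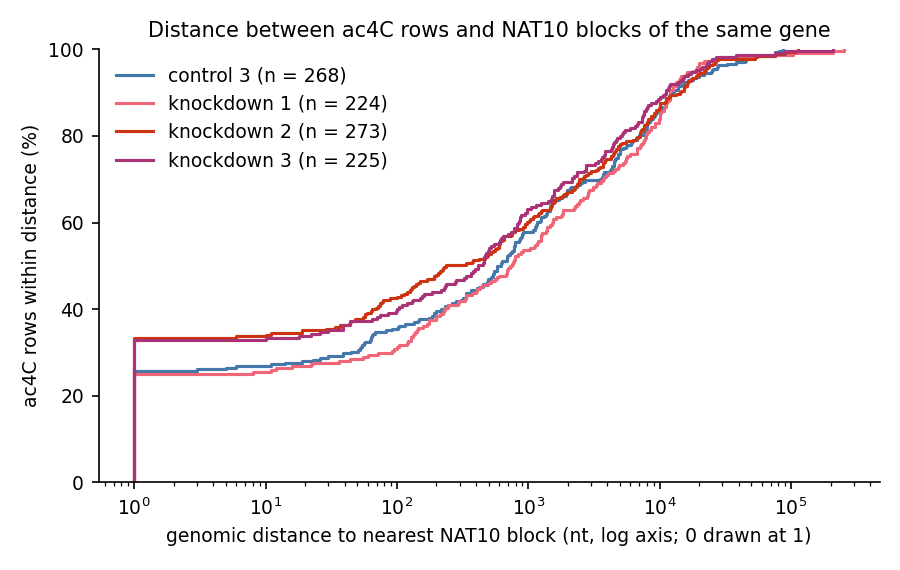
Cumulative percent of ac4C rows (vertical axis) within a given genomic distance in nt of the nearest NAT10 block of the same gene (horizontal log axis, 0 drawn at 1), for control 3 (268 rows) and knockdown 1, 2 and 3 (224, 273 and 225 rows). The curves start at the shares of overlapping rows, 25 to 33.3%, and cross beyond that.

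Where the peaks lay apart, the ac4C row was more often on the 3′ side. The nearest NAT10 block was 5′ of the ac4C row in 140 of 199 rows of control 3, in 112 of 168 of knockdown 1, in 107 of 182 of knockdown 2 and in 106 of 151 of knockdown 3. Over all lists that is 465 rows, against 235 with the nearest block on the 3′ side. Rows 3′ of every NAT10 block of their gene made up 42.5% of control 3 and 40.2, 26.7 and 36.4% of knockdown 1, 2 and 3. Rows 5′ of every block made up 11.2% of control 3 and 15.2, 15.0 and 12.4% of the knockdown lists. The 3′ class was larger than the 5′ class in all 4 lists. How exon sequence lies around the NAT10 blocks was not compared, and distances include introns, so neither 3′ excess has a baseline. Control 3 lay above the knockdown range for the 3′ class and below it for the 5′ class. With 1 control list these differences have no test, and the classes were not counted in controls 1 and 2.

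**Figure D3:**
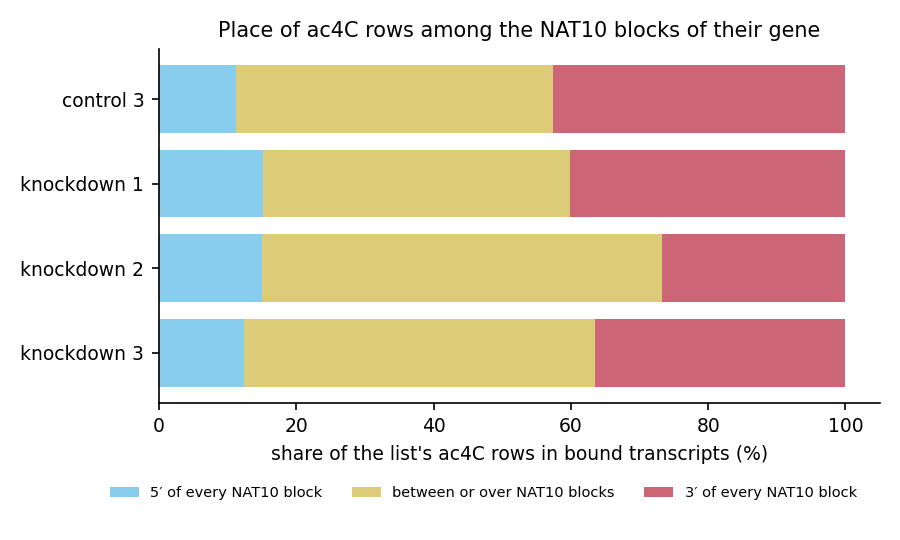
Percent of the ac4C rows of each list (horizontal axis) that lie 5′ of every NAT10 block of their gene, between or over the blocks, or 3′ of every block. The 3′ class is 26.7 to 42.5% and the 5′ class 11.2 to 15.2% of a list.

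The overlapping rows were spread unevenly over the genes. Overlap in at least 1 list was seen in 124 of 285 genes, and the 10 genes with the most overlapping rows held 87 of the 290 (30%). The same 10 genes held 106 of all 990 rows, and ranking them by overlapping rows raises their share of the overlap. Without these 10 genes, chosen after their values were seen, the mean share over the lists was 23.0% in place of 29.2%. Of the 71 genes with rows in all 4 lists, 13 overlapped in every list and 28 in none.

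Hsp90b1, the endoplasmic reticulum chaperone GRP94, had 13 rows and all overlapped. Control 3 held 4 of them, knockdown 1 held 3, knockdown 2 held 2 and knockdown 3 held 4. The row nearest the 3′ end, at chromosome 7, 27226569 to 27228024 on the minus strand in control 3, recurred in every list and shared 225, 225, 175 and 225 bases with NAT10 blocks. NAT10 blocks covered 38.3% of its 3195 nt of exons. Calr, the calcium-binding chaperone calreticulin of the same compartment, had 1 row per list, each overlapping, with 59 shared bases out of 356.

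Eif3a, the largest subunit of the translation initiation factor eIF3, had 3 rows per list, of which 2, 3, 2 and 2 overlapped in control 3 and knockdown 1, 2 and 3. NAT10 blocks covered 9.27% of its exons, while its ac4C rows reached 1080 bases. In Chd4, the helicase of the NuRD chromatin complex, NAT10 blocks covered 83.5% of the exons and all 8 rows overlapped. Its row at chromosome 4, 157645509 to 157645659, was found in control 3 and knockdown 1 with the same ends.

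Flna, the actin cross-linker filamin A, differed in its number of rows by list. Control 3, knockdown 1 and knockdown 3 each had 1 row at the 3′ end of the listed region, and knockdown 2 had 11 rows spread along the transcript. All 11 overlapped, and they are 11 of the 91 overlapping rows of knockdown 2. NAT10 blocks covered 77.3% of Flna's 8412 nt of exons. Mt-nd5, a mitochondrially encoded subunit of respiratory complex I, had 2, 2, 1 and 1 rows, all overlapping, and the row of knockdown 3 spanned 1830 bases.

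**Figure D4:**
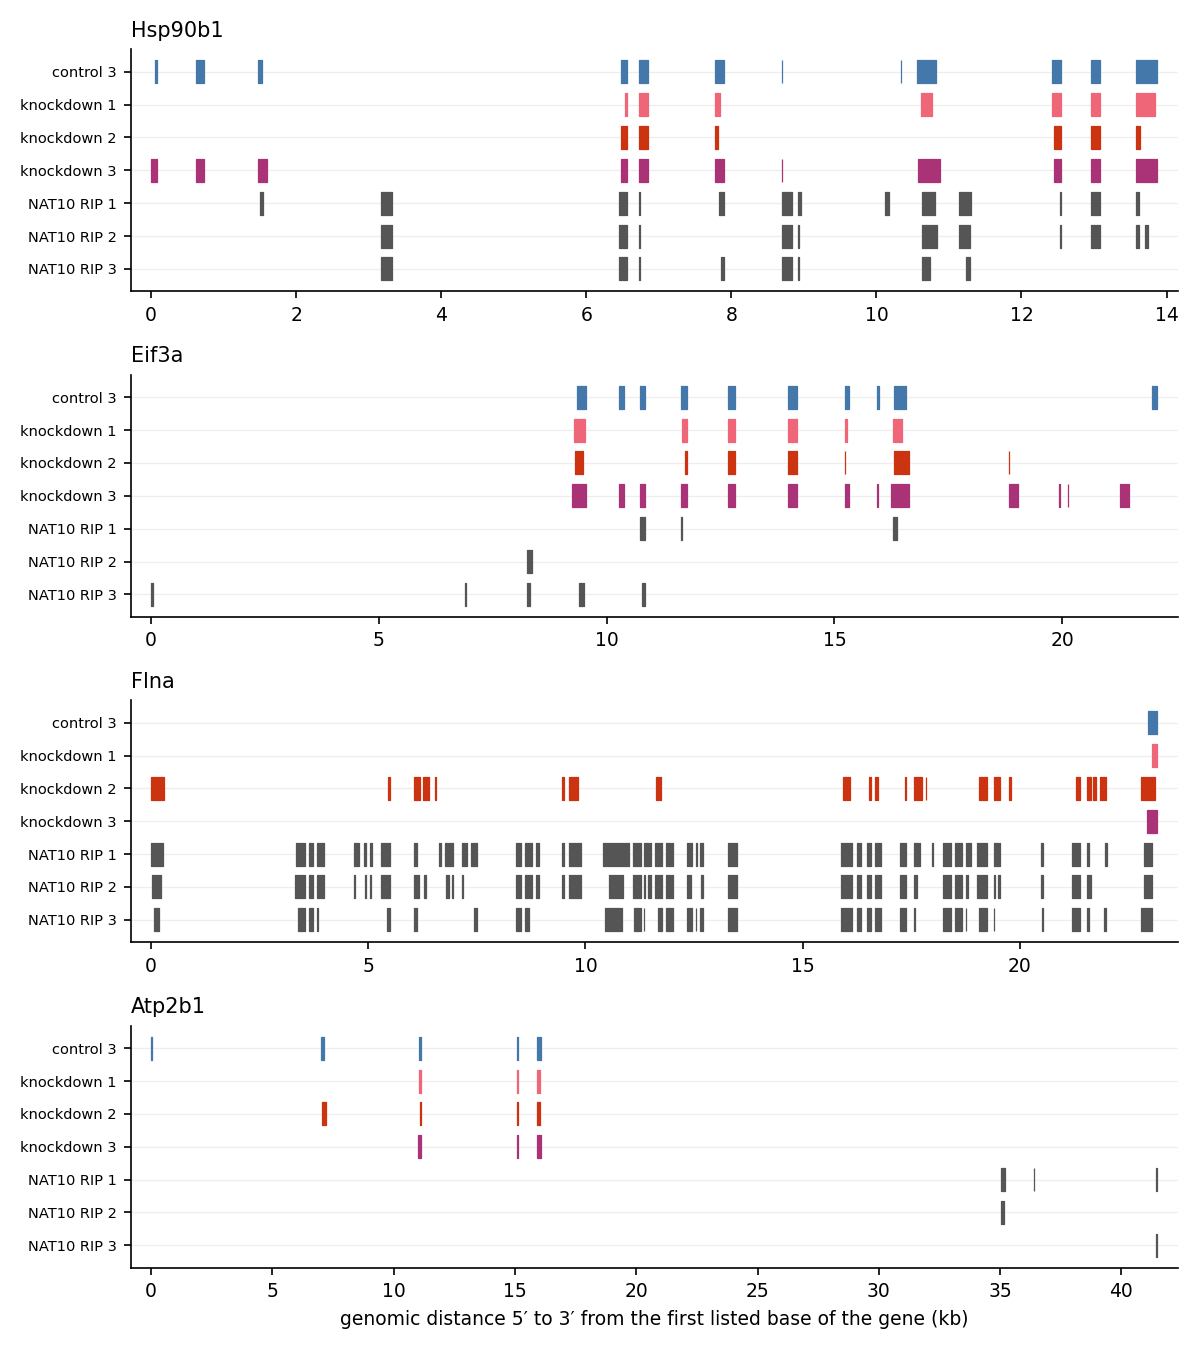
Blocks of ac4C rows (control 3 and knockdown 1 to 3, coloured) and of NAT10 RIP rows (RIP 1 to 3, grey) in Hsp90b1, Eif3a, Flna and Atp2b1, drawn 5′ to 3′ by genomic distance in kb from the first listed base. Overlap recurs in every list for Hsp90b1 and Eif3a, knockdown 2 has 11 rows in Flna, and the 2 kinds of block are separate in Atp2b1.

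In other genes the ac4C peak recurred in every list and stood far from NAT10. Atp2b1, a calcium pump of the plasma membrane, had its nearest row 18974, 19004, 19004 and 18974 nt from a NAT10 block in control 3 and knockdown 1, 2 and 3. All its rows were 5′ of all NAT10 blocks. Anp32b, a histone chaperone, had 1 row per list, 4789 nt away in the first 3 and 4729 nt away in knockdown 3. Eif5b, the factor that joins the ribosomal subunits, had 11 rows and none overlapped, with nearest gaps of 7549 to 7639 nt. Srrm1, a splicing coactivator, had 8 rows and none overlapped. Actn4, an actin cross-linker of focal adhesions, came close without touching: its 1 row per list lay 30, 60, 120 and 30 nt from a NAT10 block.

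Kif1c, a kinesin motor, had 5 of 6 rows overlapping, and Eprs, the glutamyl-prolyl-tRNA synthetase, had 5 of 5. NAT10 blocks covered 59.4 and 63.3% of their exons. In Nucb2, which encodes the precursor of nesfatin-1, blocks covered 7.24% of the exons and 4 of 8 rows overlapped, 1 in each list. Psmd1, a subunit of the proteasome cap, overlapped in all 3 knockdown lists, while its row in control 3 lay 2467 nt away. Fn1, the matrix protein fibronectin, overlapped in control 3, knockdown 1 and knockdown 3 and lay 11265 nt away in knockdown 2. These cases show that the distance of a gene's nearest row could change by list in either direction.

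Ncor1, a corepressor of nuclear receptors, had 9 rows and none overlapped. Its nearest row lay 11836, 11836, 125 and 11746 nt from a NAT10 block in control 3 and knockdown 1, 2 and 3. In Smarcc1, a subunit of the SWI/SNF remodeller, the nearest gaps were 8040, 10128, 10157 and 85 nt. Ranbp2, a nucleoporin, had nearest gaps of 14139 to 16365 nt, and Tjp1, a tight junction scaffold, of 2654 to 15832 nt. The short gaps each came from 1 list.

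Itgb1, the beta-1 integrin chain that binds matrix, had 3 rows in control 3, 0 in knockdown 1, 4 in knockdown 2 and 1 in knockdown 3. The row at chromosome 19, 61702360 to 61705287 in control 3, had a counterpart in knockdown 2 and knockdown 3, and each of the 3 shared 75 bases with a NAT10 block. The other rows lay 3504 to 20032 nt from NAT10, all 3′ of it. Among the 8 genes with rows in all 3 knockdown lists and none in control 3, Tpm2 (a tropomyosin of the thin filament) had 5 rows with 2 overlapping and Smarca4 (the BRG1 chromatin remodeller) had 5 with 3 overlapping. Among the 24 genes with rows in control 3 alone, the 6 ranked best by p were Itga1, Nedd4, Arhgap35, C3, Gbf1 and Epha2. Each of these had 1 row, and none of the 6 rows overlapped. In comparison, 59 genes had rows in exactly 1 knockdown list and in no other list, so a gene in 1 list only was common in either group.

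Gene groups differed in their counts, given here without a test. The groups were not matched for the share of exons under NAT10 blocks, with which overlap rose. Giant cytoskeletal linkers such as Dst and Plec, which tie filament systems together, had 34 of 71 rows overlapping, with 9 of 12 for Dst and 6 of 17 for Plec. Ahnak, a giant scaffold protein chosen after its values were seen, gave 11 of these 34, of which 8 were in knockdown 2. Giant ubiquitin ligases and kinases, such as Ubr4 and Mycbp2, had 17 of 33 rows overlapping. Integrins and focal adhesion genes had 22 of 37, of which Flna gave 13. Translation genes had 17 of 34, with Eif3a and Eif3c giving 15 of these. Chromatin genes had 24 of 55 and endocytosis and receptor genes 8 of 20. Collagens and matrix genes had 12 of 43, close to the 29.3% of all rows, and RNA processing genes had 2 of 14. Contractile genes had 3 of 12, from Tpm2 and Ppp1r12a, the targeting subunit of myosin phosphatase, the 2 members among 18 genes listed. None of the 18 cell cycle genes listed was in all 3 NAT10 lists. For scale, 285 genes were members and 362 stood in all 3 NAT10 lists, beside 13450 genes tested in the input. Lists of 18 genes are too short to read a shortage from such counts.

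The 3 NAT10 libraries differed in how often ac4C rows touched them. NAT10 peaks of RIP 1 were touched by 21.0 to 29.7% of the rows of an ac4C list, those of RIP 2 by 17.2 to 25.3%, and those of RIP 3 by 12.9 to 20.9%. Bases found in all 3 RIP lists were touched by 10.7 to 15.8%. Seen from the NAT10 side, 176 of 1927 rows of RIP 1 (9.13%) overlapped an ac4C row of any of the 4 lists, as did 155 of 1728 of RIP 2 (8.97%) and 121 of 1542 of RIP 3 (7.85%). In the same genes, 58.4 to 81.3% of the rows of a RIP list overlapped a row of another RIP list. These genes were chosen for standing in all 3 RIP lists, which raises that share, so it is not a neutral yardstick for the ac4C overlap. The authors' log2 enrichment was similar in NAT10 rows with and without an ac4C overlap, with medians of 1.08 and 1.08 in RIP 1, 1.05 and 1.07 in RIP 2, and 1.05 and 1.09 in RIP 3.

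The ac4C lists were also compared with each other. Of the control 3 rows in bound transcripts, 35.1 to 42.2% overlapped a row of a given knockdown list, with a mean of 38.3%. Between knockdown lists the share was 33.3 to 42.2%, with a mean of 39.0%. Counted from the knockdown side, 45.1, 34.8 and 49.3% of the rows of knockdown 1, 2 and 3 overlapped a row of control 3, with a mean of 43.1%, so knockdown 1 and knockdown 3 lay above the range between knockdown lists. These shares also depend on how many rows the other list holds. In knockdown 2, 91 of 273 rows overlapped knockdown 1, the same number as overlapped NAT10. In genes of no RIP list, 22.1 to 30.2% of control 3 rows overlapped a row of a given knockdown list. The classes also differed in whether the gene had any row in that knockdown list. It did for 69.0 to 70.5% of control 3 rows in bound transcripts and for 38.2 to 46.9% in genes of no RIP list. Merged over lists, the rows formed 601 sites, of which 378 were in 1 list, 116 in 2, 61 in 3 and 46 in all 4. NAT10 overlap was seen for 34.4, 25.9, 32.8 and 39.1% of these, with no order by the number of lists. Their median length rose in the same order, at 151, 255, 300 and 390.5 bases, and a longer site can share a base more easily. Counted by bases, 21.0, 12.4, 8.57 and 15.3% of these sites lay in NAT10 blocks. Sites in control 3 alone numbered 104 and overlapped NAT10 in 25% (95% Clopper-Pearson interval 17.0 to 34.4%). Sites in 1 knockdown list alone numbered 274 and overlapped in 38.0% (interval 32.2 to 44.0%), and this difference was not tested. Sites in 2 knockdown lists and not in control 3 went the other way, with 11 of 51 overlapping (21.6%, interval 11.3 to 35.3%). Sites in all 3 knockdown lists and not in control 3 numbered 12, of which 3 overlapped.

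Compared with ac4C rows in genes of no RIP list, those in bound transcripts came from longer and more abundant genes. The genes of a list had a median exon length of 5110 to 6252 nt, against 2281 to 2831 nt for genes of no RIP list. Their median level in the input of the same library was 30.5 to 67.5 FPKM, against 12.5 to 22.2 FPKM. Per kilobase of exon, counted only over genes with at least 1 row, they held fewer rows, 0.196 to 0.222 against 0.362 to 0.413. Each gene counted holds a row whatever its length, so this measure is raised in short genes. Per gene they held more rows, 1.33 to 1.59 against 1.13 to 1.19. Rows of several blocks were more frequent, 42.5 to 54.9% against 29.8 to 33.4%. Genes found in 1 or 2 RIP lists came closer to the members. Their median exon length was 3938 to 4264 nt and 36.3 to 42.3% of their rows had several blocks. Their median input level was 29.4, 29.5, 26.7 and 44.96 FPKM in control 3 and knockdown 1, 2 and 3, against 44.4, 32.5, 30.5 and 67.5 FPKM for the members. This class had overlap in 6.64% of the rows of control 3 and in 8.22, 12.8 and 10.5% of those of knockdown 1, 2 and 3. NAT10 blocks there covered 4.49 to 5.25% of exon length and held 2.62 to 4.32% of ac4C bases. The bound genes without an ac4C row numbered 76 with a recovered length, and their median exon length was 4687 nt.

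Within the members, overlapping rows also came from more abundant genes. The genes of overlapping rows had a median input level of 56.4 FPKM in control 3 and 47.0, 36.1 and 86.6 FPKM in knockdown 1, 2 and 3. The genes of rows lying apart had 40.9 FPKM in control 3 and 31.9, 26.8 and 62.8 FPKM in the knockdown lists. The order was the same in 4 of 4 lists, and the part of expression in the overlap was not tested. Row length did not separate the kinds in control 3, with a median of 181 bases for both, while in knockdown 3 it was 269 against 211 bases. Knockdown 3 also stood apart in its p-values: 23 of its rows had a p of 0 against 2 to 4 in the other lists, and the median of -log10 p over its rows was 12.4 against 3.12 to 4.37.

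Input RNA of the member genes was lower after knockdown more often than higher, and no gene passed the threshold. In limma on log2(FPKM + 1), 0 of 285 member genes had an adjusted p under 0.05, as for all genes (0.0% of 13450), and the lowest adjusted p was 0.155. At an unadjusted p under 0.05, 30 members were lower (10.5%) beside a background of 6.95% of all genes, and 10 were higher (3.51%) beside 5.53%. The libraries of the groups did not overlap for 41 members that were lower (14.4%) beside 10.9% of all genes, and for 23 that were higher (8.07%) beside 9.63%. The median log2 change was -0.11 over the members and -0.01 over all genes tested. It was -0.18, -0.14, -0.11 and -0.03 for members with rows in 1, 2, 3 and 4 ac4C lists. The quartiles overlapped, at -0.42 to 0.09, -0.52 to 0.09, -0.50 to 0.11 and -0.45 to 0.22 in the same order. Knockdown lists are 3 of these 4, and peak detection may rise with expression, so this grouping is not independent of the change. All genes tested were not matched to the members for expression level, and the part of level in these differences was not tested. The count of lower members ran from 15 without control 3 to 71 without knockdown 3, and was 16 without control 2. That of higher members was 3 without control 2, 3 without control 3 and 29 without knockdown 2.

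Of the 6 lower members with the smallest p, 3 were collagen chains. Col4a2, a type IV collagen chain of the basement membrane, stood at 160, 96.6 and 102 FPKM in controls and 18.0, 12.5 and 19.9 FPKM in knockdown libraries, and the groups did not overlap. Its log2 change was -2.75 (SE 0.26) with an adjusted p of 0.155 in limma, and 0.063 to 0.725 over the alternatives. Itgb1 stood at 535, 694 and 701 FPKM in controls and 160, 87.4 and 324 FPKM in knockdown libraries (log2 change -1.94, limma adjusted p 0.266). Tpm2 stood at 716, 566 and 572 FPKM and at 167, 92.5 and 214 FPKM (log2 change -2.03, limma adjusted p 0.193). Tpm2 thus had ac4C rows in the knockdown lists and none in control 3, whose input level was above that of every knockdown library. Col11a1 and Col5a1, fibrillar collagen chains, had log2 changes of -2.13 and -1.66, and Anpep, an aminopeptidase of the cell surface, had -0.96.

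The 6 members that stood higher with the smallest p differed less in size, apart from 1. Hsph1, a heat shock protein of the HSP110 family, stood at 52.8, 54.3 and 63.5 FPKM in controls and 203, 85.6 and 273 FPKM in knockdown libraries, with no overlap of the groups. Its log2 change was 1.55 (SE 0.41) with an adjusted p of 0.281 in limma. Stip1, a co-chaperone that links HSP70 and HSP90, had a log2 change of 0.60, and Snrnp200, a helicase of the spliceosome, one of 0.53. Cebpz, Supt6h and Birc6 had log2 changes of 0.51, 0.54 and 0.48. None of these passed the threshold.

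**Figure D5:**
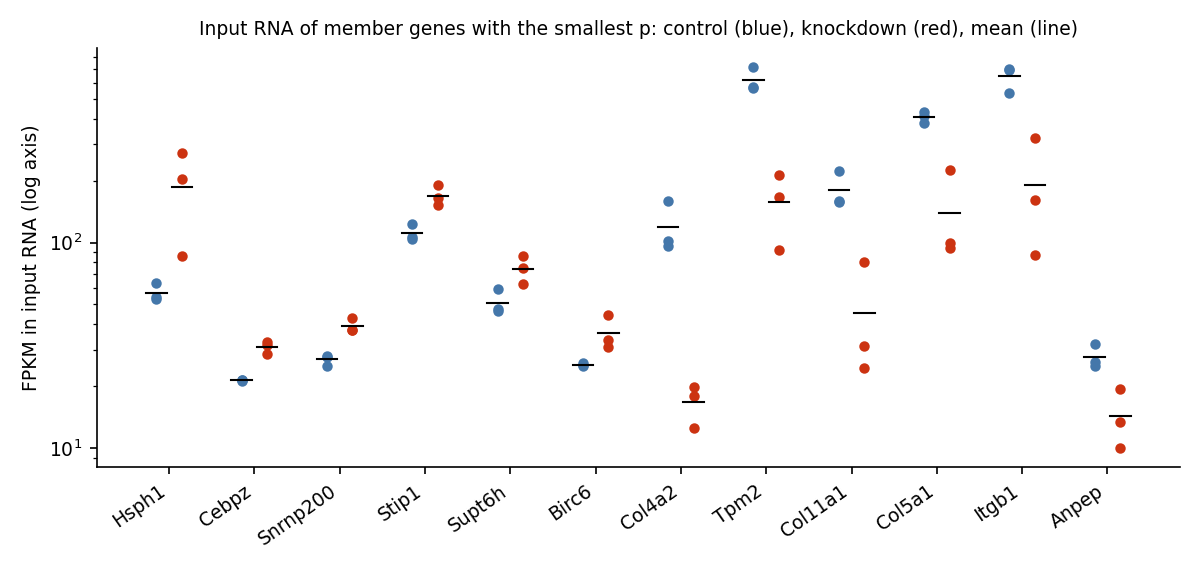
FPKM in input RNA (vertical log axis) of the 6 member genes with the smallest limma p in each direction. Points are the 3 control (blue) and 3 knockdown (red) libraries, and lines are group means. The groups do not overlap for any of the 12 genes, which choosing them by smallest p in these libraries makes likely. Over all genes tested, 9.63% were higher and 10.9% lower without overlap. The lowest limma adjusted p among the 12 is 0.155.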

How the data were processed

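The authors deposited ac4C peak lists with 1 p-value per peak, which may be raw or adjusted, and NAT10 RIP lists with a log2 enrichment, p-values, −log10 p-values and a score per peak, per the file headers. Peak scores were used only within a list. The authors deposited input expression as FPKM. Tools in the submitters' processing notes are HISAT2 2.1.0, cutadapt 2.5, HOMER 4.10.4, DESeq2 and featureCounts 1.6.3, without roles, beside the builds rn6 (rat), GRCm38 and GRCh38. Not given in the sources used here are the peak callers and the RIP control. Both kinds of list use the same coordinates: 327 of 5626 internal NAT10 block ends fell exactly on an ac4C block end of the same gene, and 0 did at a shift of 1 base either way. Starts are given counting from 1.

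Blocks of rows with the same gene ID were intersected in Python 3.11.15 (pandas 2.3.3), with a minimum of 1 shared base and NAT10 rows of all 3 lists merged. Distances are genomic. The overlap code returned the true answer for 300 of 300 simulated pairs. Exon lengths came from a search for the length that turns FPKM into whole fragments in all 6 libraries (20 to 130000 nt), which on simulated data returned the true length for 99 of 100 genes, and none for 200 genes with altered decimals. Input RNA was tested in R 4.3.3 with limma 3.58.1 (trend) on log2(FPKM + 1) where the mean FPKM reached 1, with Benjamini-Hochberg adjustment over all genes at 0.05. On simulated data for this comparison over 13450 genes it recovered 21% of 100 genes changed by a log2 of 1 and 84% of 100 changed by a log2 of 3. With 1 control list the overlap comparison has no test; exact permutation tests were used with 3 against 3 lists.

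The members and gene lists were chosen with earlier results of these data known. Genes named are Itgb1, those ranked best by p in all 4 lists, with the most shared bases, farthest from NAT10, in 1 group only, with the smallest limma p, and up to 3 per gene list; Ahnak and Eif3c were chosen after their values were seen. The non-precipitated RIP library was not analysed here. Sequences are not printed.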

Additional observations from a re-analysis of the deposited data

Results flagged for a closer look

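Controls 1 and 2 hold ac4C rows in NAT10-bound transcripts that the main comparison does not use. Outside the shared p-value, control 1 had 218 such rows, of which 48 overlapped a NAT10 block (22.0%), and control 2 had 149, of which 33 overlapped (22.1%). NAT10 rows that name several gene IDs in 1 cell were left unmatched, and 13 ac4C rows of the 4 lists lie in 2 genes named only that way. AABR07018038.1 had 4 such rows with 2 overlapping, and AABR07018038.2 had 9 with 0 overlapping.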

How the results depend on the processing

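The mean share of rows overlapping a NAT10 block, 29.2%, was 14.3% with 50% or more of the ac4C bases required, 13.0% with bases in all 3 RIP lists, 21.6 and 16.7% with RIP 2 or RIP 3 alone, 16.2% with NAT10 rows at or above the median enrichment of their list, 20.2% over genes of at least 1 RIP list and 23.0% without the 10 genes with the most overlapping rows (chosen after seeing the data). It ranged from 24.9 to 30.7% leaving out 1 library. Comparing whole spans with introns found the same 290 rows, with 0 rows overlapping by span and not by block. The knockdown minus control difference in this share ran from 0.607 to 9.04 points over the 21 alternatives. These reuse largely the same lists, so their common sign is not repeated evidence. In the main setting knockdown 1, at 25%, lay below control 3, at 25.7%. The mean of the median distances, 498 nt, was 1504 nt between centres and 418 to 820 nt leaving out 1 library; the group difference was 151 nt between centres in place of -140 nt, and -277 to -26 nt leaving out 1 library. The mean share of a list in bound transcripts, 8.46%, was 15.6% over genes of at least 1 RIP list and 11.02% with a p at or below 1e-05, where the group difference was -1.06 points in place of 1.01; that difference was 0.237 points without knockdown 2 and 1.77 without knockdown 1. Control 3 rows overlapping a knockdown row, 38.3%, were 33.3% with 50% of the bases required. In the input, 0 members passed an adjusted p under 0.05 in any of 10 alternatives. At an unadjusted p, higher members ranged from 3 to 29 and lower ones from 15 to 71 leaving out 1 library. Per-gene deviations from the group mean correlated at -0.21, -0.28 and 0.18 between the control and knockdown inputs of numbers 1, 2 and 3. The numbers were therefore not taken to pair samples. With a replicate block 4 members were higher and 24 lower, and 0 passed the adjusted threshold. The cause of these shifts was not tested. The unknown depth of the precipitated libraries limits every count of rows: a row missing from a list is not shown to be absent from the RNA.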
